A study of Homo sapiens with 8 samples.

Results

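SEC24D and SEC31A encode subunits of the COPII coat, and both have regions in the list deposited for eIF4G2-bound RNA of control cells. The protein eIF4G2 is an initiation factor resembling eIF4G1 without its binding site for the cap-binding protein. The rule took each region, in either deposited list, that lay inside or overlapped a transcript of a gene named SEC24D or SEC31A. These are 2 of the 861 genes with a region in either list. The RNA came from IHCF cells, an immortalized line of human cardiac fibroblasts. Overexpressing cells had received full-length eIF4G2 by lentivirus and control cells a scramble vector, and an antibody against eIF4G2 was used in both conditions, so that control cells report on the protein they make themselves. Per the labels there were 2 biological replicates of eIF4G2-bound and of total RNA in each condition, 8 libraries in all. Each condition has 1 list of regions, and how its replicates were joined is not given in the sources used here, so every value below is a description with no replicate error and no test. The names of the tables alone tell the conditions apart, and they also carry the name of another RNA-binding protein, MOV10.

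COPII is the coat that forms vesicles at exit sites of the endoplasmic reticulum. The GTPase SAR1 recruits an inner layer of SEC23 and SEC24, in which SEC24 binds the cargo, and an outer cage of SEC13 and SEC31 then bends the membrane. In fibroblasts the coat exports procollagen, a cargo too long for ordinary vesicles, and loss of SEC24D function in people is known to give a brittle bone disease. SEC24D is 1 of several SEC24 paralogs, which differ in the sorting signals they bind, and SEC31A is the widely expressed SEC31.

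Both genes lie on the minus strand of chromosome 4 (GRCh38), SEC24D at 118722823 to 118836126 (113.3 kb) and SEC31A at 82818509 to 82900569 (82.1 kb) in RefSeq. The tables hold 8 transcripts of SEC24D and 24 of SEC31A. SEC31A transcripts start in separate places, and its widest bound region lies between them. The 250 bases before the upstream start, at 82900569, and before the first of the downstream starts, at 82891280, are shown from RefSeq GRCh38.p14 because they flank the stretch in which this region falls. They are the minus strand of chr4:82900570-82900819 and chr4:82891281-82891530. Capitals mark CCAAT, which was searched on both strands.
SEC31A upstream start: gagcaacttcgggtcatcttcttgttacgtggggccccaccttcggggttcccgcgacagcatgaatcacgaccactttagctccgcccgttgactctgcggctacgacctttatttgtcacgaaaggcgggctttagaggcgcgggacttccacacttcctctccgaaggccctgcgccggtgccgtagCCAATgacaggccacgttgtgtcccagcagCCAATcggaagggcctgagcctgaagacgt
SEC31A downstream start: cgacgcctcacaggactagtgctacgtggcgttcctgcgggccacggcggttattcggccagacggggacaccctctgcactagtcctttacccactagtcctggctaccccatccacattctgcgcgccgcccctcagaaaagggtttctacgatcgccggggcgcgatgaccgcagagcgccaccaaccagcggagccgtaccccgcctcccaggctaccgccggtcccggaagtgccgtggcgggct
The upstream sequence holds CCAAT 2 times and the downstream sequence 0 times. Of 35116 promoters of the same length, 32.0% hold it on either strand. The match says nothing of a factor. The widest SEC31A region covers neither stretch, lying 5368 bp from the upstream start and 1920 bp from the downstream one.

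SEC24D had 0 regions in the overexpression list, against 7 in the control list, and SEC31A likewise had 0 and 7. The control regions summed to 5155 bp over SEC24D and 5410 bp over SEC31A. Every one of the 14 regions came from the control list, so neither gene has a bound stretch that could be compared between conditions. Absence from a list is no measure of binding, since the lists give no count, score or depth, and a stretch below the threshold of the caller leaves no trace in them.

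The 7 control regions of SEC24D formed 4 groups when regions up to 1000 bp apart were joined. The group nearest the 5′ end held 3 regions, at 118781001 to 118781695 (695 bp), 118780621 to 118780835 (215 bp) and 118780201 to 118780600 (400 bp). They follow each other with gaps of 165 and 20 bp, 48.3% to 49.2% of the way along the longest transcript. The next group held 2 regions, at 118751201 to 118751600 (400 bp) and 118750951 to 118751165 (215 bp), 35 bp apart and at 74.8% and 75.1%.

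The widest SEC24D region, 2800 bp at 118734201 to 118737000, stood alone at 88.7% of the longest transcript and made up 54.3% of the covered length of the gene. The 3′ ends of 2 SEC24D transcripts that stop short of the longest one fall inside it, so it lies over transcript ends as well as over the body of the longer forms. The last region, 430 bp at 118731171 to 118731600, lay 2600 bp further on, at 92.4%. It ended 8.35 kb before the 3′ end of the longest transcript, and no SEC24D region reached that end. Each of the 7 regions lay over 4 to 6 of the 8 transcripts, so none was shared by all of them.

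On SEC31A the 7 control regions had a different layout, with 6 of them in the last 25% of the longest transcript. The most 3′ region, 1290 bp at 82818646 to 82819935, overlapped the 3′ ends of 15 of the 24 transcripts and lay inside 1 more. A region of 690 bp at 82827201 to 82827890 came next, at 89.5% of the longest transcript, over 19 of the 24 transcripts. The other 4 were 400 bp at 82829601 to 82830000 (86.8%), 215 bp at 82830686 to 82830900 (85.5%), 215 bp at 82835416 to 82835630 (79.7%) and 600 bp at 82835801 to 82836400 (79.0%). These 6 regions summed to 3410 bp and each lay over 16 to 19 of the 24 transcripts. A further control region, 415 bp at 82817801 to 82818215, lay 293 bp beyond the gene and was not counted.

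The seventh SEC31A region was the widest, 2000 bp at 82893201 to 82895200, and stood 56800 bp away from the others near the 5′ end. Only 5 of the 24 transcripts, those that begin at the upstream start shown above or close to it, run across it, and the other 19 begin downstream of it. Of these 5 transcripts, 4 had no other region. The region also lay over THAP9-AS1, a noncoding gene that is antisense to THAP9 and on the same strand as SEC31A, which had 0 regions in the overexpression list and this 1 region in the control list. Since both genes lie on that strand, the region cannot be given to 1 of them. A strand, which regions do not carry, would not settle it. Without this region SEC31A had 6 control regions summing to 3410 bp. None of the 7 SEC24D regions lay over another gene.

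**Figure D1:**
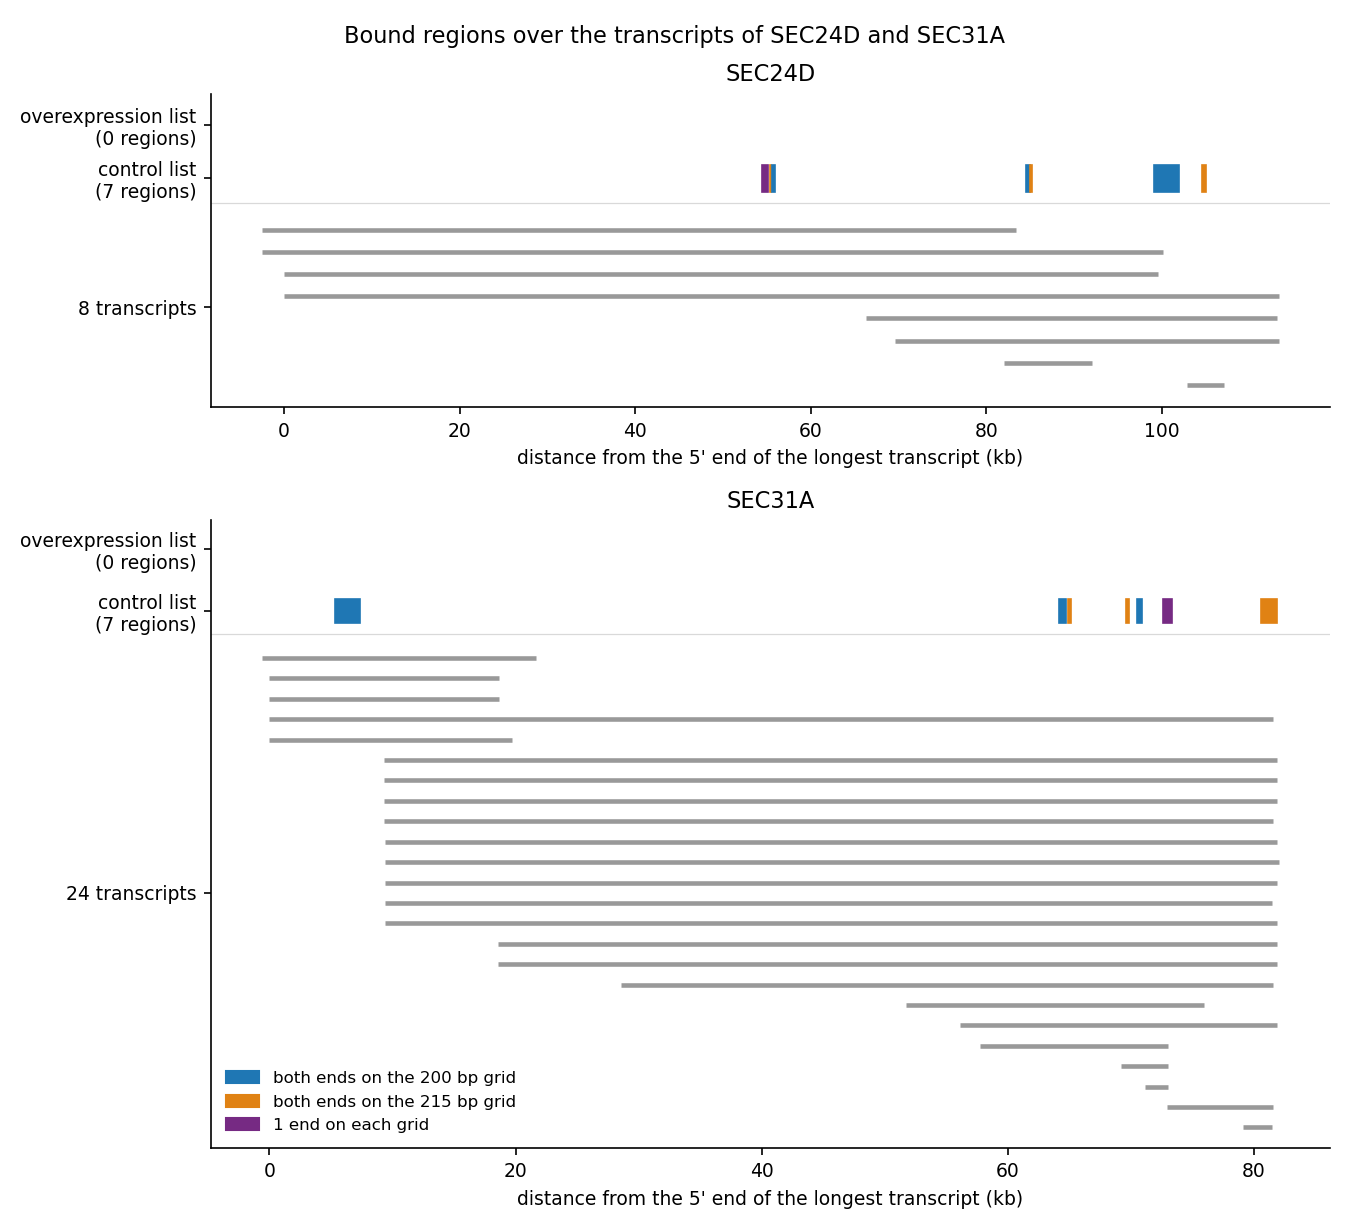
Bound regions over SEC24D (top) and SEC31A (bottom), against the distance in kb from the 5′ end of the longest transcript, with the 8 and 24 transcripts of the tables as grey lines below. The overexpression rows hold 0 regions and the control rows 7 each, coloured by the bin grid their ends fall on, and the widest SEC31A region lies over 5 of 24 transcripts.

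Control regions of chromosome 4 lay mostly towards 3′ ends. Over the other coding genes of chromosome 4, 40.3% of 1082 pairs of region and gene lay in the last 10% of the longest transcript hit, and the median position was 80.0%. SEC24D had 1 of 7 regions in the last 10% and a median position of 74.8%, with 3 regions close to the middle of the gene. SEC31A also had 1 of 7 in the last 10%, with a median of 85.5%. Taken over all transcripts hit in place of the longest, the medians were 57.1% for SEC24D and 83.3% for SEC31A. With 7 regions a gene, several of them neighbours, the difference from the other genes was not tested. The tables hold no exons, so it is not known which of these regions are exonic.

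**Figure D2:**
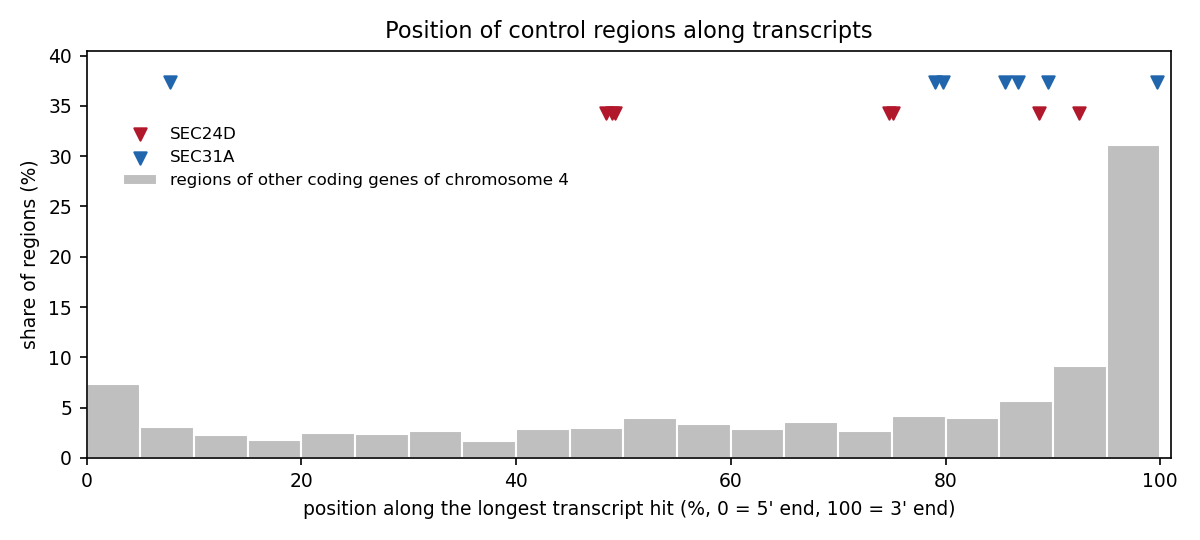
Position of control regions along the longest transcript hit, in percent from the 5′ end, for the other coding genes of chromosome 4 (grey bars, share of 1082 pairs of region and gene) and for the 7 regions each of SEC24D and SEC31A (triangles). The bars are highest at the 3′ end, where 1 SEC31A region and no SEC24D region falls in the last bar.

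The ends of the regions fall on 2 grids, since every region of chromosome 4 starts and ends on a border of bins of 200 or of 215 bp, counted from the first base of the chromosome. What the grids stand for is not given in the sources used here. Of the SEC24D regions, 3 had both ends on the 200 bp grid, 3 on the 215 bp grid and 1 an end on each, and SEC31A had the same numbers. The widest region of each gene, 2800 and 2000 bp, was on the 200 bp grid at both ends, which was so for 16 of the 91 control regions of chromosome 4 that were at least 2000 bp wide (17.6%). When regions up to 1000 bp apart were joined, 2 of 4 SEC24D groups and 4 of 5 SEC31A groups held ends on both grids, the uncounted region beyond SEC31A included. Over chromosome 4 this held for 75.7% of the 304 overexpression groups and for 73.0% of the 614 control groups. The 2 groups of SEC24D on 1 grid alone were its 2800 bp and 430 bp regions, and that of SEC31A was the 2000 bp region over THAP9-AS1. A stretch called on 1 grid inside a wider stretch of the other would not show in the ends.

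The number of regions over each gene depends on how neighbouring and shared regions are counted. The 332 coding genes of chromosome 4 with a control region had a median of 2 regions and 2330 bp, and 37 of them, SEC24D and SEC31A included, had 7 or more. With regions up to 1000 bp apart joined for every gene, SEC24D had 4 and SEC31A 5, where the median gene had 1, and 24 and 16 of the 332 genes had at least as many. In summed width as listed, 52 of the 332 reached at least the 5155 bp of SEC24D and 48 the 5410 bp of SEC31A. Per length SEC24D had 45.5 bp of region per kb of gene and SEC31A 65.9, beside a median of 40.2, and 154 and 119 of the 332 genes were at least as high. The values of SEC31A include the 2000 bp region shared with THAP9-AS1. When regions over more than 1 gene were left out for every gene, 270 genes remained, with medians of 2 regions and 31.9 bp per kb. SEC31A then had 6 regions, 3410 bp and 41.6 bp per kb, and 66 of the 270 genes reached its width and 116 its value per length. SEC24D lost no region, and 33 and 107 of the 270 genes reached its width and its value per length.

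Presence in the control list and absence from the overexpression list was common on chromosome 4. The overexpression list reached 27.3% of its 770 coding genes and the control list 43.1%, and 19.1% had control regions alone. Among the 332 with a control region, 147 had none in the overexpression list (44.3%, 95% Wilson interval 39.0 to 49.7, counting error only), so a large part of that list shares the state of SEC24D and SEC31A. The share was 52 of 87 genes with 1 control region, 36 of 88 with 3 or 4, and 7 of 37 with 7 or more (18.9%, 9.48 to 34.2). The other 30 of these 37 genes had 1 to 8 overexpression regions, with a median of 4.5. The 7 genes without any were SEC24D, SEC31A, NEK1 with 11 control regions, ANXA5 with 10, and LYAR, CBR4 and SNX25 with 8 each. SEC31A is among them only with the region shared with THAP9-AS1 counted.

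**Figure D3:**
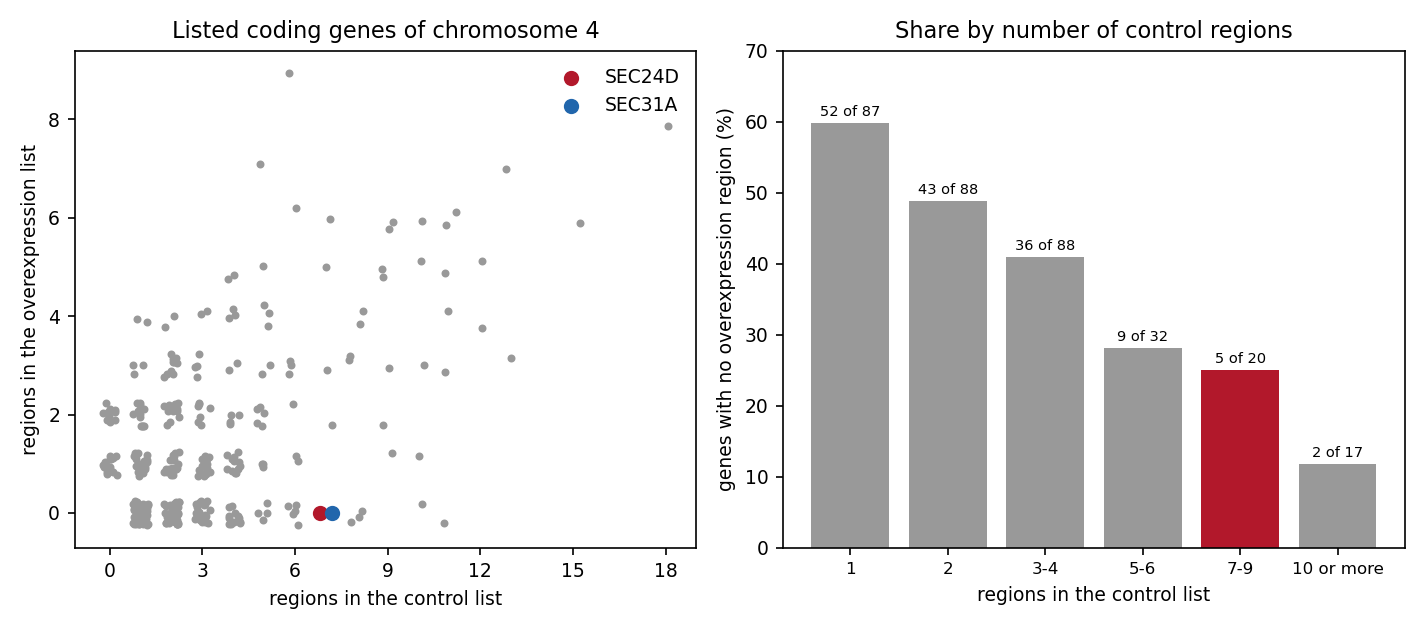
Left, regions per listed coding gene of chromosome 4 in the overexpression list (vertical) against the control list (horizontal), with small random shifts so that points do not hide each other; SEC24D and SEC31A sit at 0 and 7. Right, share of genes without an overexpression region by number of control regions, with the bar that holds SEC24D and SEC31A in red (5 of 20).

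In summed control width, the measure of likeness set for the 147 genes without an overexpression region, the 5 closest to SEC24D were the reductase gene CBR4 (5085 bp), SPCS3 (5250 bp), the deubiquitinase gene OTUD4 (4985 bp), the kinase gene NEK1 (5375 bp) and SEC31A. The 5 closest to SEC31A were TMEM192 (5425 bp), PDLIM5 (5430 bp), NEK1, SPCS3 and SEC24D. SEC24D and SEC31A differed from each other by 255 bp, with the region shared with THAP9-AS1 counted. Likeness over 2 lists, with 1 value each, describes size alone. SPCS3, a subunit of the signal peptidase, was the gene near both in width that also belongs to the secretory pathway, and it reached 5250 bp with 3 regions over a gene of 12.3 kb.

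The neighbourhoods of both genes held overexpression regions. The one nearest to SEC24D, at 118710316 to 118712250, lay 18.9 kb from its last region and over METTL14, the RNA-binding partner of the m6A methyltransferase METTL3, whose gene ends 7.39 kb from SEC24D. METTL14 had 1 region (1935 bp) in the overexpression list, against 3 (2205 bp) in the control list. Of the 20 nearest coding genes of SEC24D, 10 on each side, 4 were in the overexpression list (LARP7, ARSJ, PRSS12 and METTL14) and 8 in that of control cells. LARP7, which binds the 7SK RNA, had 2600 bp in the overexpression list, against 7750 bp in the control list. Of its regions, 1 and 2 also lay over other genes. ARSJ, a sulfatase, had 1465 and 5135 bp. PRSS12 had 1430 and 1530 bp, all of it shared with the noncoding SNHG8. All 4 lie on the side of the 3′ end of SEC24D, and of the 10 genes on the other side 0 were in the overexpression list and 3 in that of control cells. USP53, ARLN, CAMK2D and MAD2L1, a spindle checkpoint protein, had 6, 3, 2 and 2 control regions and 0 in the overexpression list. Of the USP53 regions, 1 also lay over an unnamed gene.

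The overexpression region nearest to a SEC31A region was 179.9 kb away from its 2000 bp region, over COPS4, a subunit of the COP9 signalosome. On the other side the nearest lay 188.1 kb from the most 3′ region, over the desaturase gene SCD5. The overexpression list held 8 of the 20 coding neighbours of SEC31A, and the control list 12. HNRNPD, an RNA-binding protein that acts on mRNA decay, had 5 regions (3935 bp) in the overexpression list, against 4 (8600 bp) in the control list. In each list 1 of them also lay over HNRNPD-DT. COPS4 had 1275 and 1260 bp. Its 1 control region and 1 of its 2 overexpression regions also lay over an unnamed gene. HNRNPDL (6510 bp), ENOPH1 (1775 bp), LIN54 (1760 bp) and HELQ (1015 bp) were the 4 with control regions and 0 in the overexpression list, and 1 region lay over HNRNPDL and ENOPH1 alike. FGF5, a growth factor, had 7030 bp in the overexpression list, against 11175 bp in the control list, COQ2, of coenzyme Q synthesis, 1075 and 1305 bp, and GPAT3, of glycerolipid synthesis, 1285 and 815 bp. MRPS18C (3620 and 4115 bp) and ABRAXAS1 (4020 and 3900 bp) share most of their regions and are not separate values. Regions of both lists thus lay on either side of SEC31A, while around SEC24D overexpression regions lay on 1 side among these neighbours. The 7 SEC24D regions lay 18.9 to 68.8 kb from the nearest overexpression region, with a median of 39.0 kb, and the 7 SEC31A regions 179.9 to 205.3 kb, with a median of 199.1 kb. For the 331 control regions over other coding genes of chromosome 4 that had no overexpression region the median was 139.3 kb, between those of SEC24D and SEC31A.

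**Figure D4:**
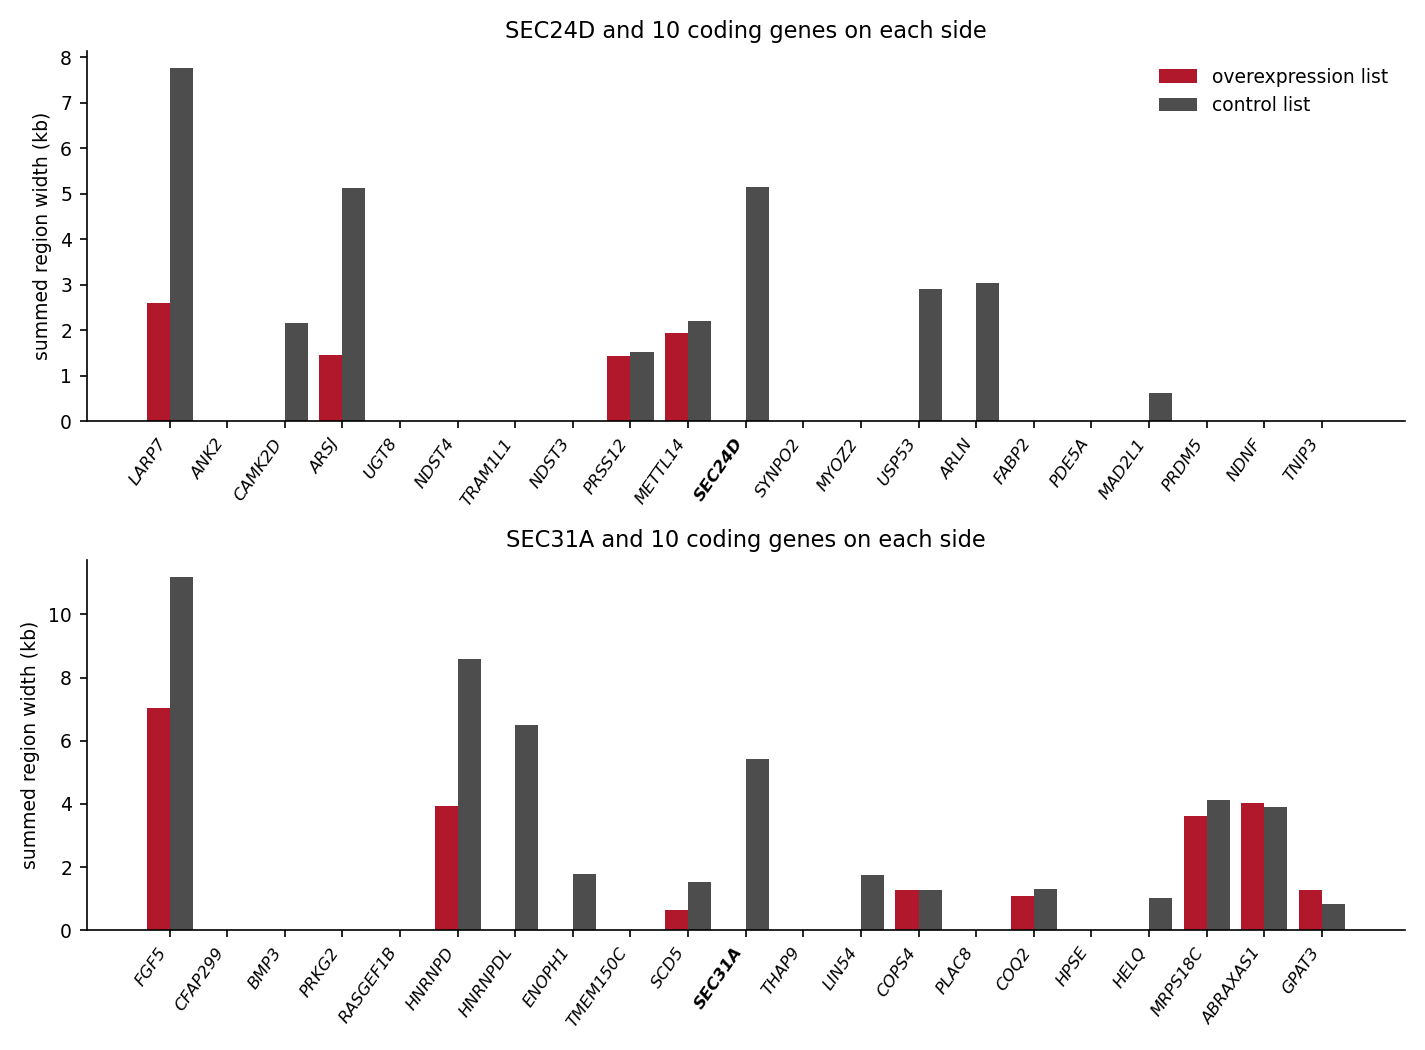
Summed region width in kb in the overexpression list (red) and the control list (dark grey) for SEC24D, SEC31A and the 10 coding genes on each side of each, in order along chromosome 4. SEC24D and SEC31A have 0 in the overexpression list while METTL14, COPS4 and SCD5 near them have regions in both lists. Widths include regions that also lie over other genes, as for COPS4.

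Paralogs of SEC24D on chromosomes 4 and 10 were likewise in the control list alone. Of the 11 genes listed for the coat, 3 lie on chromosome 4 and 3 on chromosome 10. SEC24B, a paralog of SEC24D, had 0 regions in the overexpression list, against 2 (880 bp) in the control list, at 99.0% and 99.6% of its transcript. SEC24C, another paralog, had 0 and 1 (1230 bp, at 99.1%), and this region also lay over FUT11 and an unnamed gene. SEC31B, the paralog of SEC31A, and the GTPase gene SAR1A had 0 in both lists. On chromosome 10 the overexpression list reached 9.13% and the control list 4.09% of coding genes, so a gene without a region is the common case there. SEC24B and SEC24C thus had regions at the very 3′ end, where SEC24D had none. The 5 other coat genes had none, but they lie on other chromosomes, where both lists hold few regions.

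Of the 39 genes for COPII assembly and exit sites, 5 lie on chromosomes 4, 10 and 18. USO1, a tether of vesicles bound for the Golgi (p115), had 0 regions in the overexpression list, against 4 (2520 bp) in the control list, in pairs near the 5′ end (2.44% and 4.04%) and the 3′ end (98.8% and 99.9%). TRAPPC11, a subunit of the TRAPP tethering complex, had 0 and 1 (1230 bp). On chromosome 18 the cargo receptor gene LMAN1 (ERGIC-53) had 9 regions (3590 bp) in the overexpression list, against 0 in the control list, and TRAPPC8 had 4 (2170 bp) and 0, 1 of them also over an unnamed gene. SEC23IP on chromosome 10, which binds SEC23, had 0 in both.

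The remaining secretory lists had 4 genes with a region. Among 22 genes for translocation into the endoplasmic reticulum and signal peptide cleavage, SRP72 of the signal recognition particle had 0 regions in the overexpression list, against 2 (2060 bp) in the control list, SPCS3 had 0 and 3 (5250 bp), and SEC11C on chromosome 18 had 2 (660 bp) and 0. Of 16 genes for collagen folding, P4HA1 on chromosome 10, a prolyl hydroxylase subunit, had 1435 bp in the overexpression list, against 1025 bp in the control list. The 13 genes of the COPI coat, which returns vesicles to the endoplasmic reticulum, had none. They lie on other chromosomes, where both lists hold few regions. Of the 7 genes of these lists on chromosome 4, the overexpression list held 0 and the control list all 7. Without SEC24D and SEC31A, the overexpression list held 0 and the control list all 5. Of all coding genes of that chromosome they held 27.3% and 43.1%. The lists do not cover every secretory gene of chromosome 4. Outside them, OSTC and STX18 had 2 regions in each list and TRAM1L1 had 0 in both. The lists, like SEC24D and SEC31A, were chosen with earlier results of these data known, so these counts are no independent evidence of a pattern. On chromosome 18, 3 of 3 were in the overexpression list, against 60.0% of 270 coding genes, and 0 in the control list, which has 0 regions there. With 1 list a condition, condition and list cannot be told apart, and the counts were not tested.

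**Figure D5:**
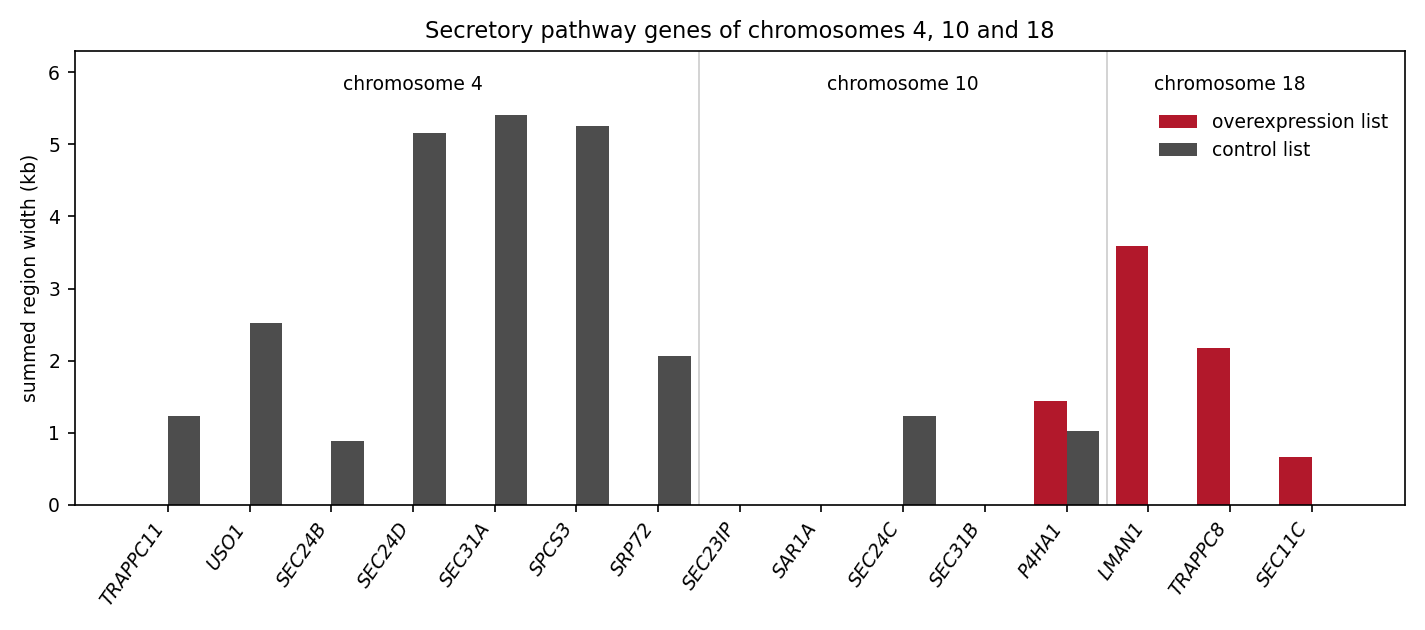
Summed region width in kb in the overexpression list (red) and the control list (dark grey) for the genes of 5 secretory lists that lie on chromosomes 4, 10 and 18. All 7 of these listed genes on chromosome 4, SEC24D and SEC31A included, have control regions alone. All 3 on chromosome 18 have overexpression regions alone, but the control list has 0 regions on that chromosome. P4HA1 has regions in both lists.

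The lists hold 1986 overexpression and 1224 control regions, of which 491 and 1185 lie on chromosome 4, 121 and 29 on chromosome 10 and 1339 and 0 on chromosome 18. EIF4G2 itself had no region in either list, so the lists hold no check of its overexpression. They cannot check the cell type either: of 11 fibroblast markers PDGFRA and VIM lie on these chromosomes and had 0 regions in both lists, as had the endothelial marker KDR. None of the 6 cardiomyocyte, 5 endothelial and 4 immune markers had a region. All of these but KDR lie on other chromosomes, where both lists hold few regions. Fewer transcripts of SEC24D and SEC31A in overexpressing cells, less binding by eIF4G2 and a difference in depth or calling cannot be told apart. The lists give no depth, and values for total RNA were not used here.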

How the data were processed

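eIF4G2-bound and total RNA of IHCF cells were sequenced, with 2 replicates of each in overexpressing and in control cells. Trimmomatic 0.36, HISAT2 2.1.0, bcl2fastq 2.19.0 and GRCh38 (hg38) stand in the submitters' processing notes. How regions were called, with what threshold and how replicates were joined was not given in the sources used here. For each condition the authors deposited 1 table of regions, whose values, per the file headers, are positions, widths and distances in bp and no other measure, with 1 line for each pair of a region and an Ensembl transcript under or nearest to it. Regions carry no strand.

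Regions inside or overlapping a gene were counted, 1 entry a region and gene. Names were matched to RefSeq genes of GRCh38.p14 by symbol, or by a synonym on the same chromosome. The 2 grids are the bin sizes, of 150 to 400 bp, that held the most region ends of chromosome 4. Position was that of the midpoint of a region along the longest transcript of the gene it hit. Counting, widths, positions and joining were tested on simulated data with 200 genes. The members, the gene lists and the named genes were chosen with earlier results of these data known. Named were SEC24D and SEC31A, genes under their regions, members of the COPII lists on chromosomes 4, 10 and 18, listed neighbours and the 5 closest genes in summed control width. Genes singled out beyond that rule (ANXA5, LYAR, SNX25, OSTC, STX18, TRAM1L1 and those of the translocation, collagen and marker lists) were chosen after their values were seen. Python 3.11.15, pandas 2.3.3, numpy 2.4.6, scipy 1.17.1 and matplotlib 3.10.9 were used.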

Additional observations from a re-analysis of the deposited data

How the results depend on the processing

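No paired analysis was possible because the lists carry no value per replicate, so no replicate block and no fit without a replicate were run. A count or width that stayed within 1.5 times its value, or a share that stayed within its 95% Wilson interval, is taken as unmoved: 54 of 65 alternative values were. SEC24D and SEC31A still had 0 overexpression regions with nearest genes counted. That setting is a weak check, since the overexpression regions closest to them lay over METTL14, COPS4 and SCD5. Joining regions, leaving out narrow ones or keeping those over 1 gene cannot raise a count of 0. Those settings are no check of the absence, though they are among the 54. Joining regions up to 1000 bp apart left 4 control regions of SEC24D. Taking the widest region alone gave 2800 bp for SEC24D and 2000 bp for SEC31A. The median position of SEC24D was 57.1% over all transcripts hit, in place of 74.8%, and is among the 54. Regions over 1 gene alone, an alternative added after the data were seen, gave 3410 bp for SEC31A. The ranks of both genes under joined and unshared regions, also added after the data were seen, stand with the widths. The share of control genes of chromosome 4 without an overexpression region was 18.9% among genes with at least 7 control regions, in place of 44.3%. With nearest genes counted, 2 genes of the translocation list were in the overexpression list, in place of 1. Ranked by number of control regions, 2 of the 5 genes most like SEC24D and 1 of the 5 most like SEC31A stayed. The depth behind the regions is unknown, so their absence sets no limit on binding.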
